A study of Mus musculus with 12 samples.

Results

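The solute carrier genes described here are the probe sets annotated to a single gene symbol made of Slc, a family number, the letter a and a member number, such as Slc2a1. They numbered 175 probe sets of 142 genes, among 12422 probe sets and 8251 genes with a symbol of their own on the array. Each gene was represented by its probe set with the highest mean over the 12 arrays. Of the 142 genes, 3 do not encode transporters: Slc9a3r1 and Slc9a3r2 encode scaffolds that bind transporters, and Slc4a1ap encodes an adaptor protein. They were kept in the counts and are described apart.

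The RNA came from wild-type Swiss Webster mouse kidneys at stage E14.5 and was amplified in 2 rounds before hybridization to Affymetrix MG_U74Av2 arrays. The arrays form 4 groups of 3. Renal vesicles, the small epithelial spheres from which a nephron starts, and S-shaped bodies, the folded structures they become, were each collected as pools of 20. Single S-shaped bodies were amplified one at a time, and each collecting duct sample was unpooled; the collecting duct grows from the ureteric bud and serves as the reference. Structures were chosen by their shape, and no group carried a treatment or a genetic change. The labels call the samples biological replicates without tying them to separate embryos, so each p-value reflects spread among these samples only. Renal vesicles were measured only as pools, so pooling and structure cannot be told apart in their comparison with collecting duct. For S-shaped bodies the single structures, unpooled like collecting duct, are given beside the pools for some of the genes. For genes given without them, the text does not separate pooling from structure in the comparison of pools with collecting duct.

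Solute carriers move ions, nutrients and metabolites across membranes, usually by exchanging solutes or by using an ion gradient, without splitting ATP themselves. Some families serve nearly every cell, such as the Slc25 carriers of the inner mitochondrial membrane and the zinc transporters of families 30 and 39. Others mark a segment of the mature nephron: sodium-coupled carriers of the proximal tubule take glucose, amino acids and phosphate back from the filtrate, and chloride cotransporters of the loop and distal tubule take back salt. The tubule segments arise from parts of the S-shaped body.

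Levels are given as log2 of the quantile-normalized intensity plus a pseudocount of 7.22. The lowest level this scale allows is 2.85, reached by normalized values at or below 0, and the size of a fitted change that involves arrays at or near this floor depends on the pseudocount. Arrays at the floor also have little or no spread, which can lower the standard error and p-value of such a change. Array values are listed in replicate order, which is 2, 3 and 4 for renal vesicles, 1, 2 and 3 for pooled S-shaped bodies and collecting duct, and 3, 4 and 5 for single S-shaped bodies. Values below 0 show how far an array's noise reaches: a gene was taken as above background where its deposited signal was larger than the size of the negative value at the lowest 5% of that array. Errors are the SD over 3 arrays for a level and the standard error of the fit for a change. Differences were tested with limma across all 9316 probe sets that passed a filter on low values, and a gene was called at a Benjamini-Hochberg adjusted p under 0.05. Levels of different probe sets are not compared.

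Across the whole array, 48.3% to 59.7% of probe sets were above background, and the median deposited intensity ran from 3.48 to 9.48 on single S-shaped body arrays, 14.3 to 20.4 on renal vesicle arrays and 37.2 to 61.9 on the others. Marker lists differed between the groups. The mean log2 level of 8 early nephron markers was 7.63 to 7.76 on renal vesicle arrays and 4.38 to 4.63 on collecting duct arrays. It was 5.41 to 5.62 in pooled and 5.31 to 5.95 in single S-shaped bodies. That of 10 collecting duct markers was 8.26 to 8.32 on collecting duct arrays and 4.36 to 5.75 on the other 9, highest there on renal vesicle replicate 3. Of these 10, 4 were above background on all 3 pooled S-shaped body arrays, among them Krt7 and Gata3 (means 9.10 and 7.83), and 4 on 0. Renal vesicles and S-shaped bodies also held markers of other cells. All 8 endothelial markers and all 7 stromal markers were above background on the 3 pooled S-shaped body arrays, and 4 of each list on the 3 renal vesicle arrays. In collecting duct, 0 of either list were above background on all 3 arrays, and 1 of each on any array, Eng and Col1a1, both on replicate 2 alone. Above background on no renal vesicle array were 1 endothelial and 0 stromal markers. The mean of the stromal markers was 5.19, 7.55 and 6.40 in renal vesicles, 8.26 to 8.96 in S-shaped bodies and 3.07 to 3.34 in collecting duct. That of the endothelial markers was 5.56 to 6.42 in renal vesicles, 8.49 to 9.19 in S-shaped bodies and 3.38 to 3.61 in collecting duct. The part of these cells in the differences below was not tested. In bulk samples, fewer cells of a type and less RNA per cell cannot be told apart.

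Roughly even shares of the solute carrier genes were above background in the pooled groups and collecting duct. Of 142 genes, 72 (50.7%) were above background on all 3 renal vesicle arrays, 67 (47.2%) on all 3 pooled S-shaped body arrays, 77 (54.2%) in collecting duct, and 59 (41.5%) on all 3 single S-shaped body arrays. The same shares over all 8251 genes were 59.9%, 59.5%, 59.2% and 50.5%. On all 12 arrays, 49 members were above background (34.5%, against 44.1% of all genes), on 0 arrays 26 (18.3%, against 19.6%), and on some arrays the other 67. The families differed in this respect. Of 12 zinc transporters, 9 to 10 were above background on all 3 arrays of each group, and of 20 mitochondrial carriers 13 to 15. The counts were 11 to 14 of 31 amino acid transporters, 2 to 4 of 11 sugar transporters, 2 to 4 of 10 organic cation, anion and carnitine transporters, and 2 to 3 of 8 bicarbonate and anion exchangers.

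**Figure D1:**
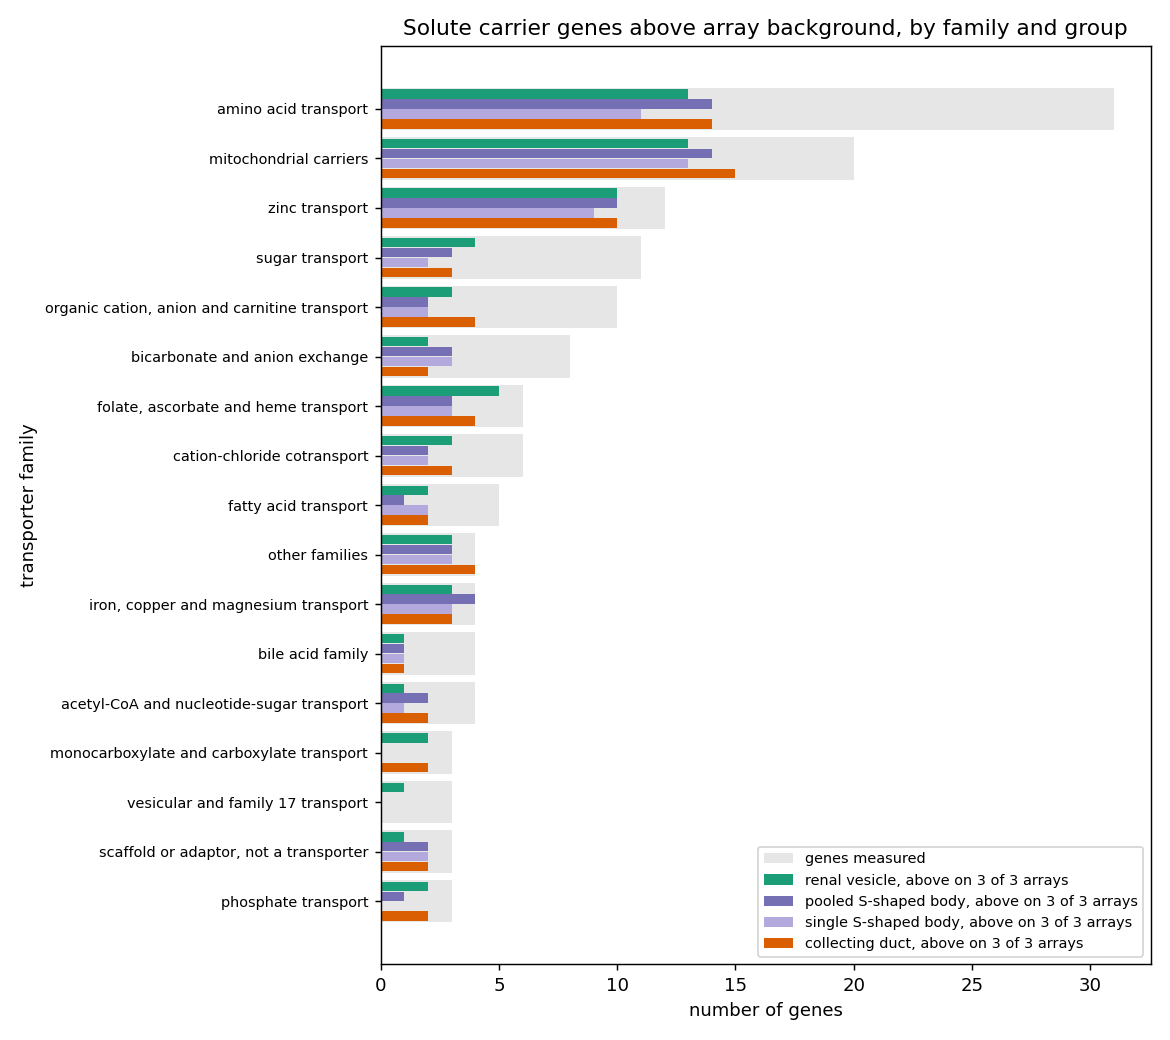
Number of solute carrier genes measured (grey bars) and above background on all 3 arrays of each group (coloured bars), for the families with at least 3 genes on the array. Zinc transporters and mitochondrial carriers fill most of their grey bars, while amino acid, sugar and organic ion transporters leave most of theirs empty.

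Several carriers that define mature tubule segments were not above background. Slc22a6, the organic anion transporter of the proximal tubule, sat at 2.85 on all 12 arrays. Slc5a1, a sodium-glucose cotransporter, and Slc12a3, the sodium-chloride cotransporter of the distal convoluted tubule, were above background on 0 arrays. Slc12a1, the cotransporter of the thick ascending limb, was above background on renal vesicle replicate 4 alone, at 5.53, with 3.54 and 4.41 on replicates 2 and 3. Slc34a1, the main sodium-phosphate cotransporter of the proximal tubule, differed from these: it was above background on all 3 renal vesicle and collecting duct arrays, 2 of 3 pooled and 1 of 3 single S-shaped body arrays. Its levels were 4.76, 6.68 and 4.54 on the renal vesicle arrays, 5.12, 4.97 and 4.53 in the pooled S-shaped bodies, 5.66, 4.71 and 4.87 in single ones, and 4.94, 4.83 and 4.93 in collecting duct. The lowest level above background was 4.66, 4.44 and 4.54 on the renal vesicle arrays and 4.57, 4.74 and 4.79 in collecting duct. Apart from renal vesicle replicate 3, Slc34a1 therefore lay close to background in both groups. The groups overlapped, and none of the 3 comparisons passed the test (log2 changes 0.43 ± 0.48, -0.03 ± 0.48 and -0.46 ± 0.48 for renal vesicle against collecting duct, pooled S-shaped body against collecting duct and pooled S-shaped body against renal vesicle; adjusted p = 0.555, 0.972 and 0.492). A level that is not above background bounds the signal of that probe set and does not show that the transcript is absent.

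Fits of the 9 arrays of collecting duct, renal vesicles and pooled S-shaped bodies tested 114 of the 142 genes, and 28 fell under the filter. Against collecting duct, renal vesicles had 12 members higher and 15 lower, or 23.7% called, where 25.5% of all 6746 genes tested were called (13.3% higher and 12.2% lower). Pooled S-shaped bodies had 17 higher and 27 lower than collecting duct, or 38.6% called, against 39.9% of all genes (18.8% higher and 21.1% lower). Against renal vesicles, pooled S-shaped bodies had 19 higher and 21 lower, or 35.1% called, against 38.2% of all genes (18.1% higher and 20.2% lower). The members' shares were near those of all genes. Their median log2 changes were -0.09, -0.19 and -0.05 in the same order, and those of all genes -0.01, -0.08 and -0.04. The 3 comparisons share arrays and are not independent. On the deposited scale, where the median change of all probe sets was -1.39, -0.46 and 0.94, the splits of higher and lower were 2 and 85, 7 and 39, and 56 and 8. A gene's change on that scale, given for some members below, includes this shift of all probe sets. The count of 15 lower in renal vesicles was 9 without collecting duct replicate 1 and 6 without replicate 3.

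In all, 62 members were called in at least 1 of the 3 comparisons. Both pooled nephron stages were higher than collecting duct for 3 members and lower for 9, and 1 member, the zinc transporter Slc39a7, was called in opposite directions. These patterns were not counted over all genes, so they are not read as particular to the solute carrier genes. In every call except 2, each array of one group lay above each array of the other. The exceptions were Slc37a4 in pooled S-shaped bodies against collecting duct and Slc9a3r1 in pooled S-shaped bodies against renal vesicles. The calls were chosen by a test on these same arrays, so such separation adds no support to them. Its share among all genes was not counted. Among the calls, 2 rest on levels that were not above background on any array of either group, those of the glutamate transporter Slc1a2 and the carnitine transporter Slc22a5 in pooled S-shaped bodies against collecting duct, and no fold is given for them. Leaving out any 1 pooled S-shaped body array, or collecting duct replicate 2 or 3, ended both calls. So did leaving out renal vesicle replicate 2 for Slc1a2, and renal vesicle replicate 3 or collecting duct replicate 1 for Slc22a5 (adjusted p = 0.0502 to 0.168).

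**Figure D2:**
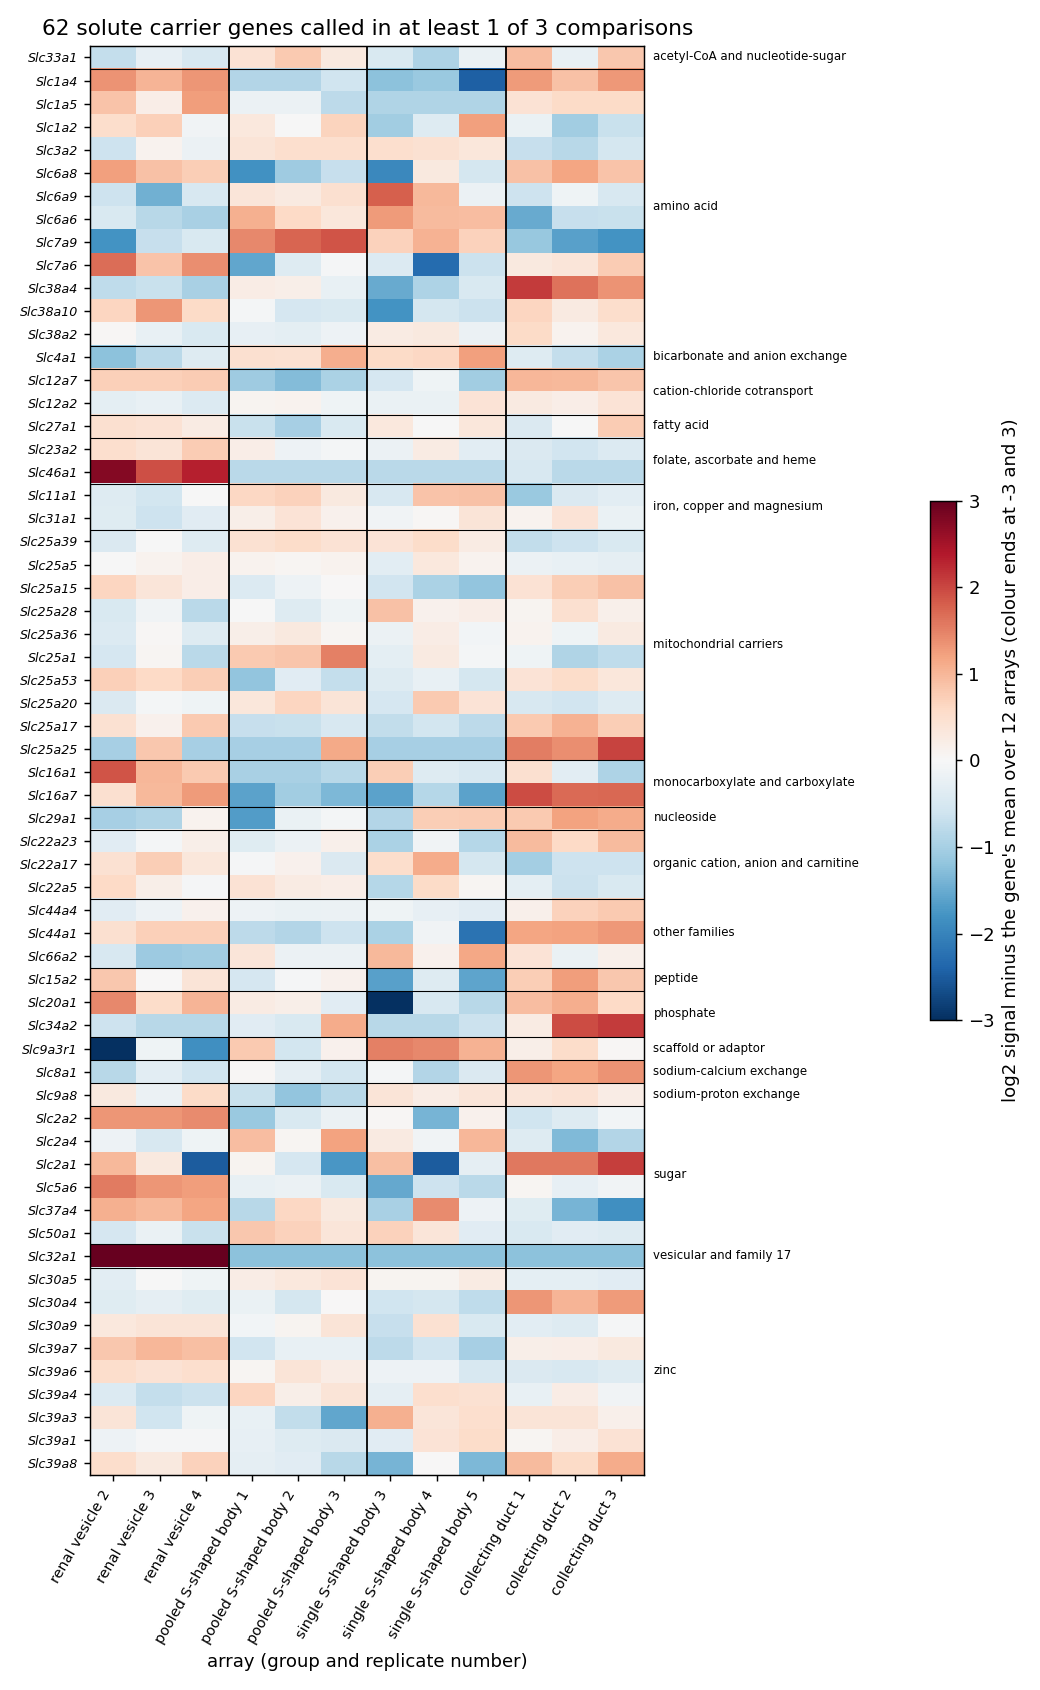
Levels of the 62 called genes on each of the 12 arrays, as the log2 level minus the gene's own mean over the arrays, ordered by family; colours end at -3 and 3. Slc32a1 and Slc46a1 stand out on the 3 renal vesicle arrays, Slc7a9 on the 6 S-shaped body arrays, and Slc38a4, Slc8a1 and Slc30a4 on the 3 collecting duct arrays.

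**Figure D3:**
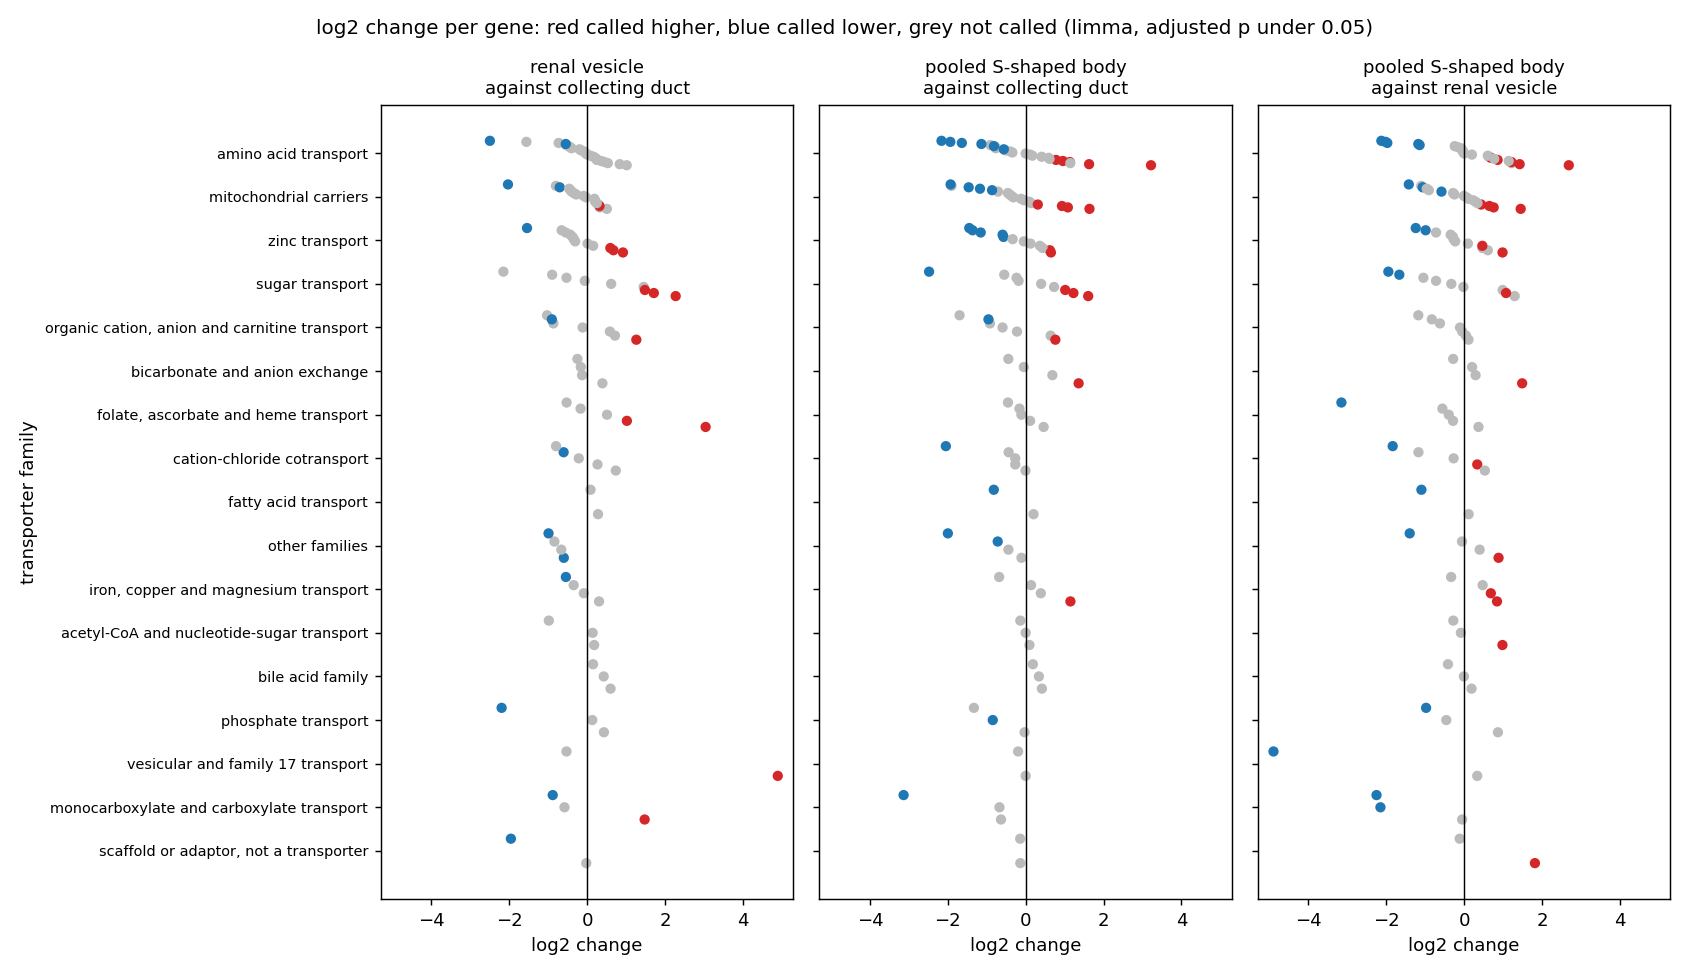
Log2 change of each tested gene (points) in the 3 comparisons, by family, for families with at least 3 genes on the array; red points were called higher, blue lower and grey not called. The larger families hold calls in both directions, and the outermost points are those of Slc32a1, whose position depends on the pseudocount because its dimmer groups lie at the floor of the scale.

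The clearest single member was Slc32a1, the carrier that loads GABA and glycine into synaptic vesicles. Its level was 8.59, 7.29 and 7.37 on the renal vesicle arrays and 2.85 on each of the other 9 arrays. The groups lay far apart, and the difference was at least 8.26-fold against collecting duct (adjusted p = 2.97e-06) and at least 8.48-fold against pooled S-shaped bodies (adjusted p = 6.22e-06). Such bounds set the bright group's mean against the lowest level above background on the dimmer group's arrays. Slc32a1 passed the filter only through its renal vesicle arrays, and its arrays at the floor have no spread. Its p-values are therefore given as description and not as support. The mean of 5 neuronal markers was 4.35 to 4.78 in renal vesicles, overlapping both 4.15 to 4.42 in pooled S-shaped bodies and 4.55 to 4.70 in collecting duct, which lay apart from each other. Of the 5, Tubb3, a neuronal tubulin, was above background on all 12 arrays and was lower in pooled S-shaped bodies than in collecting duct and renal vesicles (-1.33 and -0.99, adjusted p = 0.000299 and 0.00232), and Snap25, Syt1 and Nefl were above background on 0 arrays. The other members of its class were not above background on any array, Slc18a3, the vesicular acetylcholine transporter, and Slc17a1, a phosphate and urate transporter.

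Slc46a1, the proton-coupled folate transporter, showed the same arrangement of arrays. It read 6.41, 5.60 and 6.0 in renal vesicles, 2.85 on all 6 S-shaped body arrays, and 3.18, 2.85 and 2.85 in collecting duct. Renal vesicles were higher by at least 2.47-fold than collecting duct (adjusted p = 2.88e-05) and by at least 2.53-fold than pooled S-shaped bodies (adjusted p = 2.52e-05). Slc46a1 too passed the filter only through its renal vesicle arrays, so the same limit holds for its p-values. The other folate carrier, Slc19a1, was above background on all 12 arrays and was called in 0 of the 3 comparisons. A second probe set of that gene, above background on 3 arrays, was called higher in renal vesicles than in collecting duct (log2 change 1.54, adjusted p = 0.0289) and lower in pooled S-shaped bodies than in renal vesicles (-2.45, adjusted p = 0.00156). Among the ascorbate transporters, Slc23a2 was higher in renal vesicles than in collecting duct (6.36, 6.23 and 6.62 against 5.42, 5.28 and 5.44; log2 change 1.02 ± 0.21, adjusted p = 0.00581), and Slc23a1 sat at 2.85 on all 12 arrays. On the deposited scale the log2 change of Slc23a2 was -0.44. Slc19a1, Slc23a1, Slc23a2 and, further on, Slc3a1 lie outside the naming rule and were chosen after their values were seen. Slc48a1, a heme transporter, was above background on 11 of 12 arrays and was not called.

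The glucose transporter Slc2a2, the low-affinity carrier of liver, pancreatic islet and proximal tubule, likewise exceeded background in renal vesicles alone. It read 5.88, 5.88 and 5.99 there, against 3.44, 4.09 and 4.37 in the pooled S-shaped bodies, 4.61, 3.17 and 4.68 in single ones, and 3.96, 4.17 and 4.48 in collecting duct. The 3 renal vesicle arrays lay close together and above all others, by at least 2.32-fold against collecting duct (adjusted p = 0.00193) and at least 2.38-fold against pooled S-shaped bodies (adjusted p = 0.000521). The remaining gene of this pattern was Slc16a1, a proton-linked transporter of lactate and pyruvate. It read 5.72, 4.82 and 4.61 on the renal vesicle arrays, 2.85, 2.85 and 3.0 in the pooled S-shaped bodies, 4.57, 3.45 and 3.34 in single ones, and 4.31, 3.51 and 2.90 in collecting duct. The bounds were small, at least 1.27-fold against collecting duct (adjusted p = 0.0233) and at least 1.31-fold against pooled S-shaped bodies (adjusted p = 0.00197). The first of these calls was lost without renal vesicle replicate 2 (adjusted p = 0.0840) or collecting duct replicate 2 or 3 (0.0688 and 0.0871). Slc16a1 also passed the filter only through its renal vesicle arrays, so its p-values too are description and not support.

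**Figure D4:**
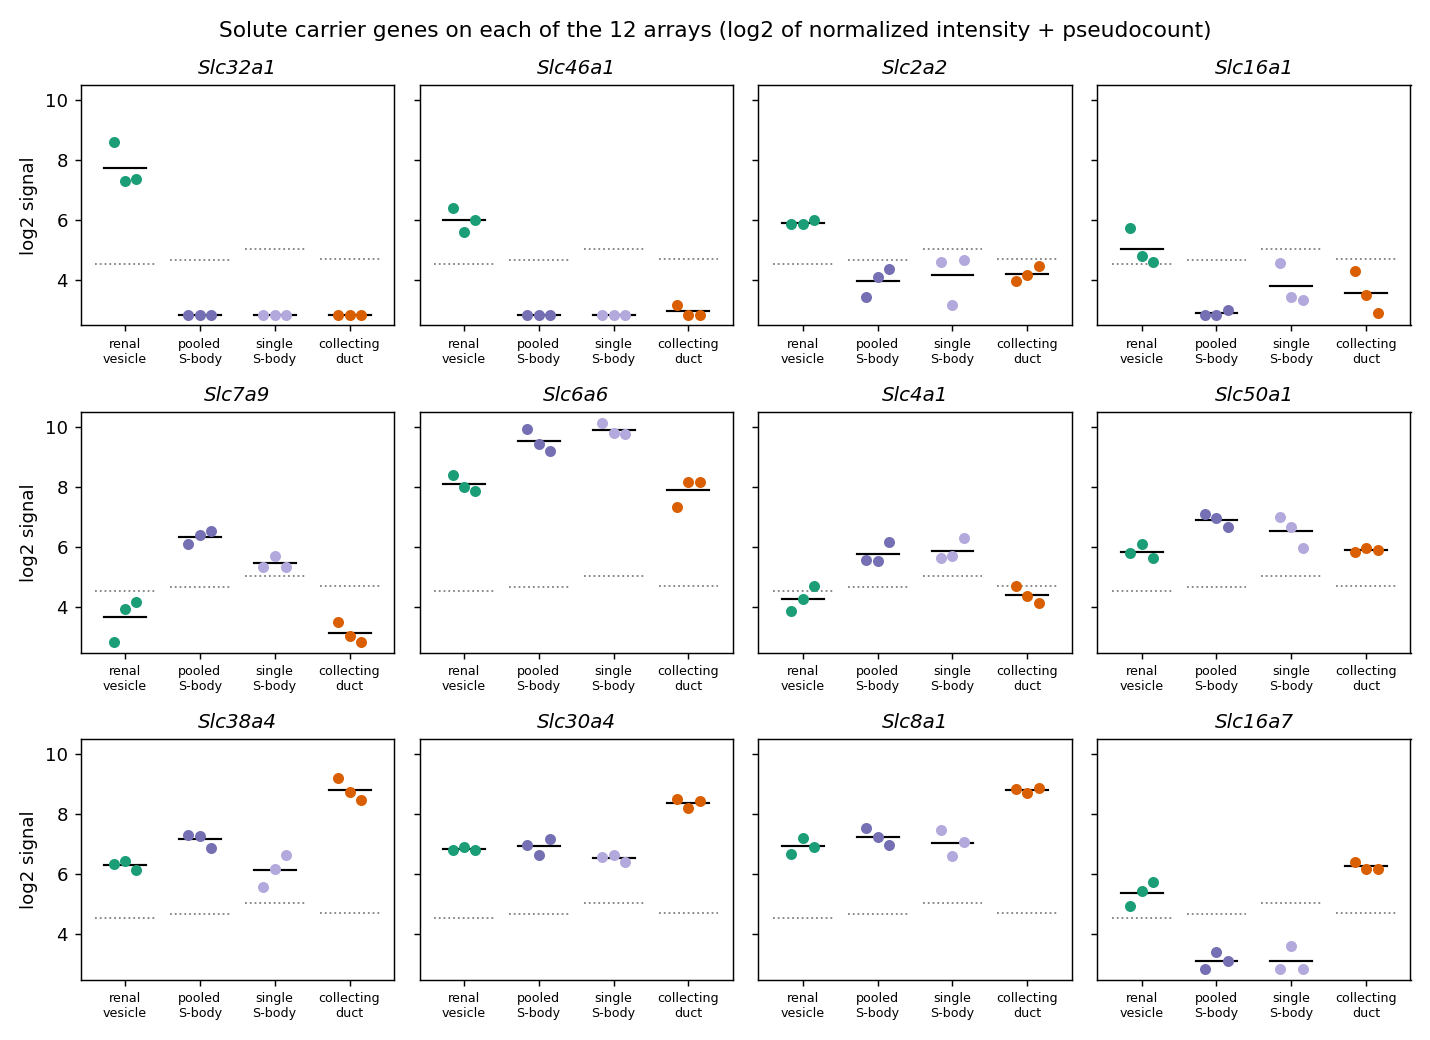
Log2 level of 12 solute carrier genes on each array (points, by group in replicate order), with group means (solid lines) and the mean over a group's arrays of the lowest level above background (dotted lines). The upper row holds the 4 genes that exceeded background in renal vesicles and on none of the other 9 arrays, the middle row genes higher in S-shaped bodies, and the lower row genes higher in collecting duct.

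Because Slc2a2, Slc16a1, Slc32a1 and Slc46a1 exceeded background on each renal vesicle array and on 0 of the other 9, the stretch around their annotated transcription start is shown, beside that of Slc7a9, the only gene above background on all 6 S-shaped body arrays and on 0 of the other 6. The genes were chosen for display after their values were seen. Sequences are the RefSeq promoter windows of 300 bases on build GRCm38.p6, 5′ to 3′ on the gene's strand, which is the plus strand for all 5; capitals mark, on either strand, the TATA box letters TATAAA, the CCAAT box, the GC box letters GGGCGG and the E-box letters CACGTG. The windows are chr3:28697653-28697952 (Slc2a2), chr3:104638414-104638713 (Slc16a1), chr2:158610508-158610807 (Slc32a1), chr11:78465451-78465750 (Slc46a1) and chr7:35448842-35449141 (Slc7a9, the more upstream of 2 listed starts).
Slc2a2: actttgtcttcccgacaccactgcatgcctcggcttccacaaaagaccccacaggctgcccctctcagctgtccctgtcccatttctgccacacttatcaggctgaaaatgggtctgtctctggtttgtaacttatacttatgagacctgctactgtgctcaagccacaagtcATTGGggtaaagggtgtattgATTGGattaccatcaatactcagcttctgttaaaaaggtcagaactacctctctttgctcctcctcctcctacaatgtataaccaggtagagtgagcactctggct
Slc16a1: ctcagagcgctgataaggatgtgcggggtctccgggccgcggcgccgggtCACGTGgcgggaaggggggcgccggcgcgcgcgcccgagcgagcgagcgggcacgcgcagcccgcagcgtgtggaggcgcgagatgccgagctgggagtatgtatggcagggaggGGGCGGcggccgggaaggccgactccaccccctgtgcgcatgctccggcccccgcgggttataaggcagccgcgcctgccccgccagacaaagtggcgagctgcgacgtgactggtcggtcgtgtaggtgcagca
Slc32a1: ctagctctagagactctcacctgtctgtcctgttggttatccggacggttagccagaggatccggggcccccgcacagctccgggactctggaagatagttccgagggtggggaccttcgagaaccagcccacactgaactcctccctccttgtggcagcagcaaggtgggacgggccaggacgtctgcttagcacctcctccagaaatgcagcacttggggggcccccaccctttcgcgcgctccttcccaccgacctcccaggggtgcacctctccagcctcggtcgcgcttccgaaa
Slc46a1: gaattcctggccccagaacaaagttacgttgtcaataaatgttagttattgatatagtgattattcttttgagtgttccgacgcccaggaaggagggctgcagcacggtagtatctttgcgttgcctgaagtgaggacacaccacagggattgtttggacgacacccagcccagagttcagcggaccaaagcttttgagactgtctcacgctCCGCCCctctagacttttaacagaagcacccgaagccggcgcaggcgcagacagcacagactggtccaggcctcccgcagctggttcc
Slc7a9: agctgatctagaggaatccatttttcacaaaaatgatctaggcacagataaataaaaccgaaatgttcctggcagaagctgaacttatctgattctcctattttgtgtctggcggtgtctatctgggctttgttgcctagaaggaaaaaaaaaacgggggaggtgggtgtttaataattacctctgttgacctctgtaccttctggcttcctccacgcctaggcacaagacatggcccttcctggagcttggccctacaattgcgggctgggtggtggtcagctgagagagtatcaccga

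None of the 8 motifs searched was in all 4 windows of the renal vesicle genes. Slc2a2 held CCAAT at 2 places, Slc16a1 held GGGCGG and CACGTG once each, Slc46a1 held GGGCGG once, and Slc32a1 and Slc7a9 held none of the 4 motifs in capitals. TATAAA was in none of the 5 windows. The other motifs searched were GTTAAT, TGACGTCA and CAAAGTCCA, with 0 matches in the 5 windows, and CAAAG, which overlaps CAAAGTCCA, with 2 in Slc2a2, 1 in Slc16a1, 0 in Slc32a1, 3 in Slc46a1 and 1 in Slc7a9. Base composition also differed: G and C made up 73.7% of the Slc16a1 window and 63.3% of that of Slc32a1, both above the upper quartile of 61.7% over all windows, and 53.0% in Slc46a1, 48% in Slc2a2 and 47% in Slc7a9. Of the 142 genes, 115 had a window in the table. Over 27025 windows, 1 per gene of any kind, GGGCGG was in 35.9%, CCAAT in 38%, TATAAA in 14.2%, CACGTG in 7.24%, GTTAAT in 7.22%, TGACGTCA in 1.85%, CAAAGTCCA in 0.474% and CAAAG in 54.0%. Over the 115 solute carrier windows the shares were 67.8%, 33.9%, 7.83%, 11.3%, 5.22%, 0.870%, 0.870% and 49.6% in the same order. A match describes the letters of a window and is not evidence of binding.

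Sugar carriers were also counted as a family, with Slc2a2 and the vitamin transporter Slc5a6 among the 9 tested. Higher in renal vesicles than in collecting duct were 3, namely Slc2a2, Slc37a4 and Slc5a6, and 0 were lower. For pooled S-shaped bodies the counts were 3 higher and 1 lower. Of all genes tested, 13.3% were higher and 12.2% lower in the first comparison, and 18.8% and 21.1% in the second. Whether the family differs from all genes was not tested. Slc37a4, which carries glucose 6-phosphate into the endoplasmic reticulum, read 7.36, 7.27 and 7.48 on the renal vesicle arrays, 5.47, 6.91 and 6.59 in the pooled S-shaped bodies and 5.94, 4.90 and 4.45 in collecting duct. Renal vesicles lay above all collecting duct arrays (log2 change 2.27 ± 0.42, adjusted p = 0.00262), while pooled S-shaped bodies overlapped them (1.23 ± 0.42, adjusted p = 0.0383). The latter call was lost without any 1 of 5 arrays, namely renal vesicle replicate 4, pooled replicates 2 and 3, and collecting duct replicates 2 and 3 (adjusted p = 0.0512 to 0.142). Slc5a6, the sodium-dependent multivitamin transporter that shares its family with the glucose cotransporters, read 6.67, 6.44 and 6.38 on the renal vesicle arrays, 4.89, 4.95 and 4.66 in the pooled S-shaped bodies, 3.59, 4.50 and 4.30 in single ones and 5.17, 4.86 and 5.01 in collecting duct. It was higher in renal vesicles than in collecting duct (1.48 ± 0.23, adjusted p = 0.000795) and than in pooled S-shaped bodies, where it fell by 1.67 ± 0.23 (adjusted p = 0.000243).

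A different pair of sugar carriers was higher in pooled S-shaped bodies than in collecting duct. Slc50a1, a sugar transporter of the SWEET family, read 7.12, 6.99 and 6.66 in the pooled S-shaped bodies, against 5.81, 6.10 and 5.63 in renal vesicles and 5.84, 5.97 and 5.91 in collecting duct. The log2 change was 1.02 ± 0.21 against collecting duct (adjusted p = 0.00333) and 1.08 ± 0.21 against renal vesicles (adjusted p = 0.00263). Slc2a4, the insulin-responsive glucose transporter, was above background on 2 of 3 pooled S-shaped body arrays (5.34, 4.49 and 5.63) and on 0 collecting duct arrays (4.02, 3.08 and 3.54). It was higher in the pools by at least 1.37-fold (adjusted p = 0.00498). Against renal vesicles its log2 change of 0.99 was not called. Another probe set of Slc2a4 had a mean of 2.85, the floor, and was above background on 0 arrays. Slc2a1, the glucose transporter of most embryonic cells, was highest in collecting duct, at 6.93, 6.92 and 7.40. It read 6.32, 5.64 and 2.85 in renal vesicles and 5.41, 4.83 and 3.58 in the pooled S-shaped bodies, so the nephron arrays spread widely. The change against collecting duct was -2.48 ± 0.75 in pooled S-shaped bodies (adjusted p = 0.0234) and did not pass in renal vesicles (-2.15 ± 0.75, adjusted p = 0.0614). The S-shaped body call was lost without pooled replicate 3 or any 1 of the collecting duct arrays (adjusted p = 0.0533 to 0.0934).

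The monocarboxylate carrier Slc16a7, which takes up pyruvate and lactate, was low in S-shaped bodies. It read 6.43, 6.18 and 6.19 in collecting duct, 4.94, 5.45 and 5.75 on the renal vesicle arrays, 2.85, 3.42 and 3.12 in the pooled S-shaped bodies and 2.85, 3.60 and 2.85 in single ones. All 6 S-shaped body arrays were under background and the other 6 above it. Pooled S-shaped bodies were lower by at least 3.03-fold than collecting duct (adjusted p = 1.14e-05) and by at least 1.64-fold than renal vesicles (adjusted p = 0.000167). Renal vesicles were lower than collecting duct by less (log2 change -0.88 ± 0.29, adjusted p = 0.0452), a call lost without any 1 of 6 arrays, namely renal vesicle replicates 2 and 3, pooled S-shaped body replicate 3 and each collecting duct replicate (adjusted p = 0.0559 to 0.136). The third member measured, Slc16a8, was called in 0 comparisons.

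Amino acid transporters were the largest family, with 31 genes of which 24 were tested. Against collecting duct, renal vesicles had 0 higher and 2 lower, and pooled S-shaped bodies 5 higher and 6 lower; against renal vesicles, pooled S-shaped bodies had 5 higher and 5 lower. Slc7a9, the light subunit of the cystine and dibasic amino acid transporter of the proximal tubule, led the higher ones. It read 6.10, 6.41 and 6.55 in the pooled S-shaped bodies and 5.34, 5.70 and 5.34 in the single ones, against 2.85, 3.96 and 4.19 in renal vesicles and 3.52, 3.03 and 2.85 in collecting duct. No S-shaped body array overlapped the other groups. The difference of pooled S-shaped bodies was at least 3.14-fold against collecting duct (adjusted p = 6.11e-05) and at least 3.50-fold against renal vesicles (adjusted p = 0.000279). Slc7a9 passed the filter only through its pooled S-shaped body arrays, so these p-values are given as description and not as support. Its heavy-chain partner in the tubule, Slc3a1, was above background on 1 of the 12 arrays, in renal vesicle replicate 2.

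Slc6a6, the taurine transporter, was high on the same arrays. It read 9.93, 9.45 and 9.20 in pooled and 10.14, 9.80 and 9.78 in single S-shaped bodies, against 8.41, 8.02 and 7.87 in renal vesicles and 7.33, 8.17 and 8.18 in collecting duct. Pooled S-shaped bodies were higher by 1.63 ± 0.26 than collecting duct (adjusted p = 0.000602) and by 1.43 ± 0.26 than renal vesicles (adjusted p = 0.00167), while renal vesicles and collecting duct did not pass (0.20 ± 0.26, adjusted p = 0.619). A second probe set of the gene gave larger changes, 3.11 and 2.97 (adjusted p = 0.000161 and 0.000291). Slc3a2, the heavy chain shared by several amino acid exchangers, read 9.51, 9.62 and 9.62 in the pooled S-shaped bodies, 8.50, 9.24 and 8.96 on the renal vesicle arrays and 8.44, 8.30 and 8.60 in collecting duct (1.14 ± 0.18 against collecting duct, adjusted p = 0.000504; 0.69 ± 0.18 against renal vesicles, adjusted p = 0.0114). Slc6a9, a glycine transporter that red cell precursors also use, read 6.77, 6.66 and 6.89 in the pooled S-shaped bodies, against 5.78, 4.97 and 5.93 in renal vesicles (1.21 ± 0.27, adjusted p = 0.00525). Its call against collecting duct (0.78 ± 0.27, adjusted p = 0.0440) was lost without any 1 of the pooled S-shaped body arrays or collecting duct replicate 1 or 3 (adjusted p = 0.0731 to 0.134).

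Slc1a4 and Slc6a8 were low in S-shaped bodies, while their renal vesicle and collecting duct arrays overlapped. Slc1a4, a neutral amino acid transporter, read 8.69, 8.36 and 8.65 in renal vesicles, 8.60, 8.22 and 8.63 in collecting duct, 6.44, 6.46 and 6.74 in pooled and 6.11, 6.23 and 4.89 in single S-shaped bodies. Pooled S-shaped bodies were lower by a log2 change of -1.93 ± 0.18 against collecting duct (adjusted p = 1.15e-05) and -2.02 ± 0.18 against renal vesicles (adjusted p = 1.79e-05); renal vesicles and collecting duct did not pass (0.08 ± 0.18, adjusted p = 0.775). Slc6a8, the creatine transporter, read 7.83, 7.48 and 7.33 in renal vesicles, 7.47, 7.80 and 7.47 in collecting duct and 4.79, 5.55 and 5.91 in the pooled S-shaped bodies. The changes were -2.16 ± 0.28 against collecting duct and -2.13 ± 0.28 against renal vesicles (adjusted p = 0.000128 and 0.000201), and that of renal vesicles against collecting duct did not pass (-0.03 ± 0.28, adjusted p = 0.947). Slc7a6, a cationic and neutral amino acid exchanger, read 8.04, 7.24 and 7.78 in renal vesicles, 6.68, 6.73 and 7.13 in collecting duct and 4.81, 5.98 and 6.34 in the pooled S-shaped bodies. All 3 renal vesicle arrays lay above the collecting duct arrays, but this difference did not pass the test (0.84 ± 0.36, adjusted p = 0.121). It fell by 1.97 ± 0.36 from renal vesicles to pooled S-shaped bodies (adjusted p = 0.00166), and its second probe set by 1.34 (adjusted p = 0.00458). Against collecting duct its call was lost without pooled replicate 1 or any 1 collecting duct array (adjusted p = 0.0299, and 0.0543 to 0.0994 without them).

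Both amino acid transporters called lower in renal vesicles than in collecting duct belong to family 38, sodium-coupled carriers of small neutral amino acids. Slc38a4 read 9.21, 8.75 and 8.47 in collecting duct, 6.34, 6.45 and 6.14 in renal vesicles, 7.32, 7.29 and 6.90 in pooled and 5.58, 6.18 and 6.66 in single S-shaped bodies. Every nephron array lay below every collecting duct array, and the log2 change was -2.50 ± 0.22 in renal vesicles (adjusted p = 1.38e-05) and -1.64 ± 0.22 in pooled S-shaped bodies (adjusted p = 0.000159). Slc38a2, which cells induce when amino acids are short, was lower by less, -0.55 ± 0.15 and -0.56 ± 0.15 (adjusted p = 0.0231 and 0.0132). Its call in S-shaped bodies was lost without collecting duct replicate 1 (adjusted p = 0.0593), and that in renal vesicles without renal vesicle replicate 4 or collecting duct replicate 1 or 3 (adjusted p = 0.0554 to 0.0927). Slc7a5 and Slc1a5, transporters of large neutral amino acids and of glutamine, were above background on 2 and 1 of the 12 arrays.

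Among ion carriers, Slc12a7, a potassium-chloride cotransporter, separated S-shaped bodies from both other structures. It read 7.59, 7.57 and 7.42 in collecting duct, 7.29, 7.30 and 7.34 in renal vesicles, 5.51, 5.28 and 5.64 in pooled and 6.07, 6.46 and 5.55 in single S-shaped bodies. The log2 change of pooled S-shaped bodies was -2.05 ± 0.18 against collecting duct and -1.84 ± 0.18 against renal vesicles (adjusted p = 7.26e-06 and 3.15e-05), and renal vesicles against collecting duct did not pass (-0.21 ± 0.18, adjusted p = 0.417). Slc12a2, the sodium-potassium-chloride cotransporter found in many cells, was above background on all 12 arrays and fell by 0.60 ± 0.10 in renal vesicles against collecting duct (adjusted p = 0.00192). Its call between pooled S-shaped bodies and renal vesicles (0.34 ± 0.10, adjusted p = 0.0273) was lost without any 1 of 4 arrays, namely renal vesicle replicates 2 and 4 and pooled replicates 1 and 2 (adjusted p = 0.0543 to 0.0925). Slc8a1, the sodium-calcium exchanger, read 8.85, 8.71 and 8.87 in collecting duct, 6.68, 7.21 and 6.91 in renal vesicles, 7.56, 7.26 and 6.97 in pooled and 7.47, 6.63 and 7.08 in single S-shaped bodies. The nephron arrays lay at least 1 log2 unit below the collecting duct (-1.87 ± 0.20 and -1.54 ± 0.20; adjusted p = 5.44e-05 and 0.000117).

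Slc9a8, a sodium-proton exchanger of internal membranes, was low on the pooled S-shaped body arrays. It read 6.01, 5.50 and 5.85 there, 6.98, 6.50 and 7.26 in renal vesicles and 7.04, 7.12 and 6.90 in collecting duct (log2 change -1.24 ± 0.24 and -1.12 ± 0.24 against collecting duct and renal vesicles, adjusted p = 0.00180 and 0.00351). On the single S-shaped body arrays it read 7.06, 6.90 and 7.03, as high as in the other structures. Slc4a1, the anion exchanger of red cells, read 5.58, 5.55 and 6.18 in pooled and 5.65, 5.70 and 6.32 in single S-shaped bodies, against 3.86, 4.27 and 4.71 in renal vesicles and 4.70, 4.37 and 4.15 in collecting duct. Pooled S-shaped bodies were higher by 1.36 ± 0.31 than collecting duct and by 1.49 ± 0.31 than renal vesicles (adjusted p = 0.00535 and 0.00344). The mean of 8 other red cell markers was 6.51 to 7.08 in pooled S-shaped bodies, 4.97 to 6.88 in single ones, 3.94 to 5.13 in renal vesicles and 4.36 to 4.63 in collecting duct, with 5, 2, 2 and 2 of 8 above background on all 3 arrays. The part of red cells in the Slc4a1 and Slc6a9 values was not tested. Of the scaffolds, Slc9a3r1, which anchors apical transporters, read 2.85, 5.83 and 4.12 on the renal vesicle arrays, 6.74, 5.41 and 6.11 in the pooled S-shaped bodies and 6.15, 6.52 and 6.01 in collecting duct. Its calls in renal vesicles against collecting duct (-1.96 ± 0.61, adjusted p = 0.0400) and in pooled S-shaped bodies against renal vesicles (1.82 ± 0.61, adjusted p = 0.0384) were both lost without renal vesicle replicate 2 or 4, pooled replicate 3 or any 1 collecting duct array, and the second also without pooled replicate 1 (adjusted p = 0.0521 to 0.132).

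Zinc transporters were well detected and split in direction. Of 12 tested, 3 were higher and 1 lower in renal vesicles than in collecting duct, 2 higher and 5 lower in pooled S-shaped bodies than in collecting duct, and 2 higher and 2 lower in pooled S-shaped bodies than in renal vesicles. Slc30a4, which moves zinc into vesicles, read 8.50, 8.20 and 8.45 in collecting duct, 6.80, 6.90 and 6.82 in renal vesicles, 6.97, 6.65 and 7.19 in pooled and 6.57, 6.66 and 6.41 in single S-shaped bodies. The log2 change was -1.54 ± 0.18 and -1.45 ± 0.18 in the pooled nephron stages (adjusted p = 0.000133 and 0.000110). Slc39a6, a plasma membrane zinc importer, moved the other way, at 9.52, 9.44 and 9.50 on the renal vesicle arrays, 9.06, 9.38 and 9.21 in the pooled S-shaped bodies and 8.56, 8.52 and 8.62 in collecting duct (0.92 ± 0.12 and 0.65 ± 0.12, adjusted p = 0.000340 and 0.00171). Slc39a7, which releases zinc from the endoplasmic reticulum, was higher in renal vesicles (9.92, 10.12 and 10.03) than in collecting duct (9.31, 9.32 and 9.42) and lower in pooled S-shaped bodies (8.54, 8.91 and 8.89). Its changes were 0.68 ± 0.13 and -0.57 ± 0.13 against collecting duct and -1.24 ± 0.13 between the nephron stages (adjusted p = 0.00387, 0.00585 and 5.56e-05). On the deposited scale, the renal vesicle changes of Slc39a6 and Slc39a7 were -0.52 and -0.73. Slc39a8, an importer of zinc and manganese, read 7.06, 6.68 and 7.23 in collecting duct and 5.84, 5.76 and 5.28 in the pooled S-shaped bodies (-1.36 ± 0.24, adjusted p = 0.000946). Slc39a4, the intestinal zinc importer, was higher in pooled S-shaped bodies than in renal vesicles (0.99 ± 0.19, adjusted p = 0.00185), while a second, dimmer probe set gave 0.68 (adjusted p = 0.228) and was lower than in collecting duct in both nephron stages (-2.25 and -1.57, adjusted p = 0.00254 and 0.0111).

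The 4 iron, copper and magnesium carriers had smaller differences. Slc11a1, a metal transporter of phagocytes, was above background on the 3 pooled S-shaped body arrays (5.13, 5.21 and 4.80) and on 0 of 3 collecting duct arrays (3.90 ± 0.42, SD, n = 3), at least 1.27-fold (adjusted p = 0.0119, or 0.0501 without collecting duct replicate 1). The mean of 6 macrophage and leukocyte markers was 4.03 to 4.30 in pooled S-shaped bodies and 3.75 to 3.82 in collecting duct, with 2 and 1 of 6 above background on all 3 arrays, and its part in this value was not tested. For the copper importer Slc31a1 the probe sets disagreed. The brighter one was lower in renal vesicles than in collecting duct (-0.55 ± 0.16, adjusted p = 0.0300; lost without any 1 of 4 arrays, renal vesicle replicates 2 and 3 and collecting duct replicates 1 and 2, with 0.0517 to 0.113) and higher in pooled S-shaped bodies than in renal vesicles (0.69 ± 0.16, adjusted p = 0.00624). The other was called in the opposite direction in both (0.97 and -1.15, adjusted p = 0.000829 and 0.000182), so no direction is given for the gene. Slc11a2 and Slc41a1, carriers of iron and magnesium, were above background on all 12 arrays and called in 0 comparisons.

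Mitochondrial carriers were mostly above background, and those called went both ways. Of 18 tested, 1 was higher and 2 lower in renal vesicles than in collecting duct, 4 higher and 4 lower in pooled S-shaped bodies than in collecting duct, and 4 higher and 3 lower in pooled S-shaped bodies than in renal vesicles. Slc25a4, an ADP/ATP carrier, read 11.40 to 11.89 in renal vesicles, 11.33 to 11.44 in pooled S-shaped bodies and 11.40 to 11.44 in collecting duct, and did not pass in any of the 3 comparisons (log2 changes 0.21 ± 0.12, -0.04 ± 0.12 and -0.25 ± 0.12, adjusted p = 0.230, 0.814 and 0.122). Slc25a39, a carrier linked to glutathione uptake, read 10.04 ± 0.06 (SD, n = 3) in pooled S-shaped bodies, 9.13, 9.55 and 9.18 in renal vesicles and 8.83, 8.94 and 9.11 in collecting duct. The change was 1.08 ± 0.14 against collecting duct (adjusted p = 0.000130) and 0.76 ± 0.14 against renal vesicles (adjusted p = 0.00168). Slc25a20, the carnitine-acylcarnitine carrier, was higher in pooled S-shaped bodies than in collecting duct (0.93 ± 0.17, adjusted p = 0.00131). Slc25a1, the citrate carrier, was higher by 1.64 ± 0.30 and 1.45 ± 0.30 (adjusted p = 0.00125 and 0.00298), but a second probe set above background on all 12 arrays gave -0.10 and 0.14 (adjusted p = 0.643 and 0.520). The first probe set also read lower in single than in pooled S-shaped bodies (log2 change -1.07, not called).

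Lower in S-shaped bodies was Slc25a17, the peroxisomal member of this family, at 8.76, 8.77 and 8.97 in pooled and 8.69, 8.89 and 8.65 in single S-shaped bodies against 10.23, 10.47 and 10.18 in collecting duct and 9.90, 9.57 and 10.22 in renal vesicles. The changes were -1.46 ± 0.17 and -1.06 ± 0.17 (adjusted p = 5.12e-05 and 0.000570). Slc25a53 was also lower in pooled S-shaped bodies than in collecting duct and in renal vesicles (-1.17 ± 0.24 and -1.42 ± 0.24, adjusted p = 0.00263 and 0.000916). Slc25a15, the ornithine carrier, was lower than in collecting duct (-0.86 ± 0.18, adjusted p = 0.00283). Slc25a25, a calcium-regulated ATP-magnesium carrier, was above background on the 3 collecting duct arrays (5.36, 5.24 and 5.85) and on 1 of 3 arrays in either pooled nephron group, at 4.65 in renal vesicle replicate 3 and 4.97 in pooled S-shaped body replicate 3, with 2.85 on the other 4. Because these 4 lie at the floor, the size of its change was set by the pseudocount: it was -0.98 and -0.92 with a pseudocount equal to the median and -2.86 and -2.73 with 10% of the median. Its calls (adjusted p = 0.0358 and 0.0306) were lost without any 1 collecting duct array, without renal vesicle replicate 2 or 4 in the first comparison, and without pooled replicate 1 or 2 in the second (adjusted p = 0.0580 to 0.115), the first also with the lower pseudocount (adjusted p = 0.0552).

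The remaining families are small. The choline transporter Slc44a1 read 9.71, 9.72 and 9.81 in collecting duct, 8.99, 9.23 and 9.23 in renal vesicles and 7.73, 7.63 and 7.89 in the pooled S-shaped bodies, and the 3 groups did not overlap. The changes were -0.60 ± 0.13 and -2.00 ± 0.13 against collecting duct and -1.40 ± 0.13 between the nephron stages (adjusted p = 0.00722, 1.06e-06 and 2.68e-05). Slc29a1, an equilibrative nucleoside transporter, was above background on the 3 collecting duct arrays (5.31, 5.72 and 5.64) and 0 pooled S-shaped body arrays (2.85, 4.33 and 4.46), at least 1.85-fold lower there (adjusted p = 0.0131). In renal vesicles it was above background on 1 array, and the call (-1.63 ± 0.45, adjusted p = 0.0231) was lost without any 1 of 4 arrays, renal vesicle replicates 2 and 3 and collecting duct replicates 2 and 3 (adjusted p = 0.0620 to 0.0757), and with a pseudocount of 10% of the median (-2.02, adjusted p = 0.0549). Slc15a2, a peptide transporter, was above background on the 3 renal vesicle and collecting duct arrays and on 0 of 6 S-shaped body arrays. The bound against collecting duct was at least 1.68-fold (adjusted p = 0.0162, or 0.0641 and 0.0678 without pooled replicate 1 or collecting duct replicate 2).

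Slc34a2, a sodium-phosphate cotransporter of other epithelia, read 3.93, 5.65 and 5.78 in collecting duct and 3.07, 2.85 and 2.85 in renal vesicles, at least 1.49-fold lower (adjusted p = 0.0128, or 0.0565 and 0.0540 without collecting duct replicate 2 or 3). Slc20a1, a phosphate transporter found in most cells, was lower in pooled S-shaped bodies than in renal vesicles (-0.98 ± 0.25, adjusted p = 0.00976), with 0.05 on the deposited scale. Among organic ion carriers, Slc22a17, a receptor for lipocalin-bound iron, was higher in renal vesicles than in collecting duct (6.54, 6.83 and 6.43 against 5.07, 5.48 and 5.47; 1.26 ± 0.24, adjusted p = 0.00320), with a log2 change of -0.17 on the deposited scale. Slc22a23 was lower in pooled S-shaped bodies (-0.95 ± 0.25, adjusted p = 0.0123) and in renal vesicles (-0.91 ± 0.25, adjusted p = 0.0247; lost without renal vesicle replicate 2 or collecting duct replicate 1 or 3, with 0.0702 to 0.0828). Slc27a1, a fatty acid transporter, was lower in pooled S-shaped bodies than in renal vesicles (-1.10 ± 0.29, adjusted p = 0.0116). Bile acid carriers of family 10 had 0 of 3 tested called in any comparison, and Slc35a1, the Golgi carrier of CMP-sialic acid, was above background on all 12 arrays and not called.

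Other transport genes, outside the solute carrier symbols, were counted beside these. Of 57 listed pumps, channels, aquaporins, ABC transporters, endocytic receptors and uncoupling proteins, 40 were measured and 34 tested. Renal vesicles had 5 higher and 7 lower than collecting duct, pooled S-shaped bodies 6 higher and 11 lower than collecting duct, and 7 higher and 8 lower than renal vesicles. These directions were also mixed. In the same order, 22, 17 and 19 of the 34 genes tested were not called. Among all 6746 genes tested, the shares called were 25.5%, 39.9% and 38.2%. Whether the listed genes differ from all genes in this respect was not tested.

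Single S-shaped bodies were compared with pools on 6 arrays, to see what amplification of 1 structure gives. limma called 0 of 107 solute carrier genes tested, where 0.327% of all 6738 genes were called. At an unadjusted p under 0.05 there were 18 members (16.8%), against 1212 of all genes (18%). The lowest adjusted p was that of Slc9a8 (0.0840), whose single arrays all lay above the pools, with a log2 change of 1.21 ± 0.26, or -1.20 on the deposited scale. On that scale, where the median change of all probe sets was -2.20, 0 members were called higher and 96 lower. Members above background numbered 69 to 75 per single array and 79 to 84 per pooled array. The median SD of the 49 members above background on every array was 0.304 among single S-shaped bodies, 0.197 among pools, 0.205 in renal vesicles and 0.185 in collecting duct. Single arrays also had the lowest median intensity, so less RNA input, depth of signal and spread cannot be told apart here. A count of 0 at this spread does not show that single and pooled structures have the same levels.

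**Figure D5:**
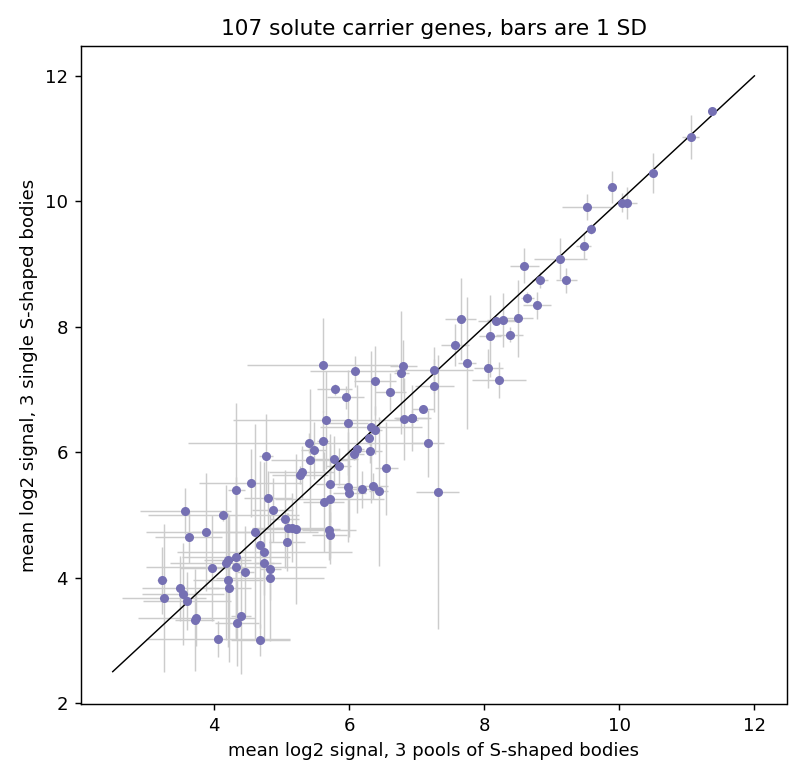
Mean log2 level of the 107 tested solute carrier genes in 3 single S-shaped bodies against 3 pools, with 1 SD bars and the line of equal levels. Most genes lie near the line, and the bars are longer for single structures and for genes at low levels.

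Second probe sets were compared where the gene was called. Of 5 other tested probe sets of genes called between renal vesicles and collecting duct, 3 had the same sign and 2 the opposite, those of Slc25a5 and Slc31a1. Of 9 for pooled S-shaped bodies against collecting duct, 5 had the same sign and 4 the opposite (Slc25a1, Slc25a5, Slc38a10 and Slc38a2), and of 7 for the nephron stages 5 and 2 (Slc31a1 and Slc38a10). In the same order, 0, 2 and 2 of those with the same sign were themselves called, and 1, 0 and 1 of those with the opposite sign. Among those counted with the same sign in both comparisons with collecting duct was another probe set of Slc25a5 (0.18 and 1.29, adjusted p = 0.791 and 0.0274). It is dimmer than the one that represents the gene. Several of these probe sets were dim: the tested second ones of Slc38a2 and Slc38a10 were above background on 0 and 1 of 12 arrays. Slc25a5, an ADP/ATP carrier close in sequence to Slc25a4, was called higher in both nephron groups by 0.32 ± 0.10 and 0.31 ± 0.10 (adjusted p = 0.0346 and 0.0253). Both calls were lost without pooled replicate 1 or 2 or collecting duct replicate 2 or 3, the first also without renal vesicle replicate 3 or 4 or collecting duct replicate 1, and the second also without pooled replicate 3 (adjusted p = 0.0504 to 0.111), and on the deposited scale their sign turned (-1.03 and -0.14).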

How the data were processed

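Expression was measured on 12 Affymetrix MG_U74Av2 arrays, 1 per sample. The authors deposited a table of intensity values, with 19.5% to 25.0% of values per array at or below 0; GCOS is named in the submitters' processing notes. How probe values were summarised or scaled is not given in the sources used here. Array medians differed up to 17.8-fold. The deposited intensities were quantile-normalized, floored at 0, and log2 values were taken after adding 7.22 (25% of the median). The 66 control probe sets were left out. Of 12422 probe sets, 10833 had 1 gene symbol in the platform annotation, 396 several and 1193 none; symbols can be dated. Probe sets whose mean lay below the 25th percentile were not tested. limma 3.58.1 in R 4.3.3 (empirical Bayes with trend, two-sided, Benjamini-Hochberg over 9316 probe sets) was fitted to 9 arrays for the 3 structures and to 6 for single against pooled S-shaped bodies, with no covariates; it was tested on simulated data. No arrays held identical values. The members and gene lists were chosen with earlier results of these data known. Genes were named by rule: the 6 called members with the largest change per direction and comparison, the brightest of each family, a fixed list, members called in opposite directions within a family, and any member of a family of 5 or fewer. The list's Slc16a3, Slc5a2, Slc26a4 and Slc14a2 had no probe set of their own symbol and were not analysed here. Promoter windows came from a RefSeq table and were matched by symbol. Alternatives covered the pseudocount, scaling, filter, trend, array weights, arrays fitted, probe sets per gene, background level, replicate block and leaving out each array. With 3 arrays per group, their number limits the precision.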

Additional observations from a re-analysis of the deposited data

Results flagged for a closer look

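The zinc transporter Slc39a7 stood out because its difference from collecting duct ran in opposite directions in the nephron stages. The log2 difference was 0.68 ± 0.13 in renal vesicles and -0.57 ± 0.13 in the pools of S-shaped bodies (n = 3 arrays per group). The difference between these effects is the change from renal vesicles to pooled S-shaped bodies, -1.24 on the log2 scale (limma, adjusted p = 5.56e-05), with every renal vesicle array above every pooled S-shaped body array. On the deposited scale, where the median change of all probe sets was -1.39, the renal vesicle effect was -0.73. All endothelial and stromal markers listed were above background on the 3 pooled S-shaped body arrays. On all 3 renal vesicle arrays 4 of each list were, and on all 3 collecting duct arrays 0 of either. Counted on any array, 1 of each list was above background in collecting duct, on replicate 2 alone. Above background on no renal vesicle array were 1 endothelial and 0 stromal markers. The part of these cells in the Slc39a7 values was not tested.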

How the results depend on the processing

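Scaling between arrays mattered most. On the deposited scale, members called higher and lower numbered 2 and 85 in renal vesicles against collecting duct, 7 and 39 in pooled S-shaped bodies against collecting duct, 56 and 8 in pooled S-shaped bodies against renal vesicles, and 0 and 96 in single against pooled S-shaped bodies. Without a filter, 7 members were lower in renal vesicles than in collecting duct. Between single and pooled S-shaped bodies, 1 member was called higher with scaling to the 75th percentile (Slc25a4) and 1 with all 12 arrays in 1 fit (Slc9a8). Leaving out 1 array at a time gave 9 to 13 higher and 6 to 14 lower in renal vesicles against collecting duct, 12 to 17 and 19 to 27 in pooled S-shaped bodies against collecting duct, 14 to 20 and 20 to 22 against renal vesicles, and 0 in either direction between single and pooled. Above background on all remaining arrays were 74 to 77 members in renal vesicles, 70 to 75 in pooled and 62 to 68 in single S-shaped bodies, and 80 to 83 in collecting duct.

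Of 2302 values of 111 called results of single genes under the alternatives, 1964 kept their direction and call, 326 lost the call and 12 reversed. Of 326 values of 16 results that were not called, 305 stayed so, 15 gained a call and 6 reversed; these 16 were chosen after such values were seen. Over all 161 results of named genes that were not called, 127 of 3003 values gained a call and 44 reversed, all 44 on the deposited scale. The deposited scale moved the median of all probe sets by -1.39, -0.46, 0.94 and -2.20 in the order of the comparisons above, and each of the following signs turned toward that shift. The values there were, for renal vesicles against collecting duct, Slc6a6 -1.31, Slc1a4 -1.39, Slc25a4 -0.95, Slc22a17 -0.17, Slc39a7 -0.73, Slc3a2 -1.02, Slc25a5 -1.03, Slc30a9 -0.86, Slc39a6 -0.52 and Slc23a2 -0.44, and for pooled S-shaped bodies against collecting duct Slc25a5 -0.14. They were Slc25a4 0.54, Slc20a1 0.048, Slc25a15 0.43 and Slc39a8 0.11 between pooled S-shaped bodies and renal vesicles, and Slc9a8 -1.20 for single against pooled. Averaging a gene's probe sets reversed Slc31a1, to 0.21 in renal vesicles against collecting duct and -0.23 in pooled S-shaped bodies against renal vesicles. Its probe sets disagree in direction.

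Replicate numbers do not pair the samples: same-numbered arrays' deviations correlated at -0.09 to 0.05. With the number as a replicate block, 10 members were higher and 9 lower in renal vesicles against collecting duct, 13 and 27 in pooled S-shaped bodies against collecting duct, and 10 and 18 against renal vesicles. No paired analysis was possible for single against pooled S-shaped bodies because they share 1 number. Levels near background limit what dim members can show.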
